A study of Mus musculus with 8 samples.

Results

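The 7 genes described here encode the β subunits of the sodium pump that were named for this account (Atp1b1, Atp1b2 and Atp1b3) and a group of its FXYD regulators (Fxyd3, Fxyd5, Fxyd6 and Fxyd7). They were chosen by name from 19023 genes tested, and Atp1b2 was picked for its rise with doxycycline in these same arrays. Its doxycycline differences are therefore given as a description with no test. The rule took every probe of the 7 genes, which came to 11 probes.

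The arrays measured RNA of TEC100.4 cells, a mouse line immortalized from cortical thymic epithelial cells, in which doxycycline switches on a mutant of TFII-I, the transcription factor that Gtf2i encodes. The groups were δ-mutant cells with doxycycline (treated δ), δ-mutant cells without it (untreated δ), β-mutant cells with doxycycline (treated β) and β-mutant cells without it (untreated β), with 2 one-colour arrays each and 8 arrays in all. Culture with or without the drug lasted 24 h, and 200 ng of RNA was labelled per array. All 4 groups carry an inducible mutant construct, and no treated line without one was analysed here, so the drug and the induced protein cannot be told apart. For untreated samples the genotype label gives wild type TFII-I but the title gives a mutant line, and the titles set the groups used here. Whether the paired arrays of a group stem from different cultures is not said, so every p-value reflects a spread that may be purely technical, and the few arrays limit the precision.

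The sodium pump, or Na/K-ATPase, is a membrane enzyme that uses ATP to carry sodium out of the cell and potassium in. Its α subunit holds the catalytic site and moves the ions, and its β subunit is a glycoprotein that brings the α subunit to the plasma membrane and can hold neighbouring cells together. FXYD proteins are small single-pass membrane proteins that associate with the pump and adjust its affinity for ions and its turnover. In epithelia the sodium gradient that the pump maintains drives the transport of other solutes.

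The data of the series set several limits. When each array was divided into 1008 tiles (8 by 8 spots), 97 tiles of untreated δ replicate 1 departed from the other arrays by over 0.3 on the log2 scale, against 0 to 7 tiles on the other 7 arrays. All arrays lay on 1 slide, with treated arrays in row 1 and untreated arrays in row 2, so row and doxycycline cannot be told apart. The δ line lay in columns 3 and 4 and the β line in columns 1 and 2, so column and line cannot be told apart either. Between 43428 and 45166 probes were well above background on treated arrays and between 39595 and 40775 on untreated arrays. Gtf2i, whose mutant was to be induced, differed with doxycycline by 0.09 in the δ line (limma adjusted p = 0.72) and by 0.11 in the β line (adjusted p = 0.73) on the log2 scale at its brightest probe, so this check did not show the induction.

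The labelled cell type was compared with its markers. Of 6 general epithelial markers, the keratin genes Krt5, Krt8, Krt14 and Krt18 were well above background on all 8 arrays, while Cdh1 was so on 3 arrays and Epcam on 1. Of 8 markers of cortical thymic epithelium, 6 were measured, and Psmb11 and Enpep were well above background on none of the arrays. All 6 fibroblast markers were well above background on all 8 arrays. Of 10 thymocyte markers, 7 (Cd3d, Cd3e, Cd4, Cd8a, Cd8b1, Lck and Tcf7) were also well above background on all 8 arrays, while Cd3g, Ptprc and Rag1 were so on none. The arrays are of bulk RNA, so fewer cells of a type and less RNA per cell cannot be told apart in any value below.

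Levels are given as the log2 of the processed intensity minus the array's 75th percentile, at the brightest probe of each gene unless another is named. They compare arrays at 1 probe and are not comparable between probes. Differences are differences of these log2 levels, and adjusted p-values are those of limma with Benjamini-Hochberg adjustment over all 19023 genes, with a threshold of 0.05. By their brightest probes, 6 of the 7 genes were well above background on all 8 arrays. Fxyd7 was well above background on both treated δ arrays and 1 treated β array, so it passed the filter only through a treated group. The same brightest probes are drawn by array in the plot of levels.

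**Figure D1:**
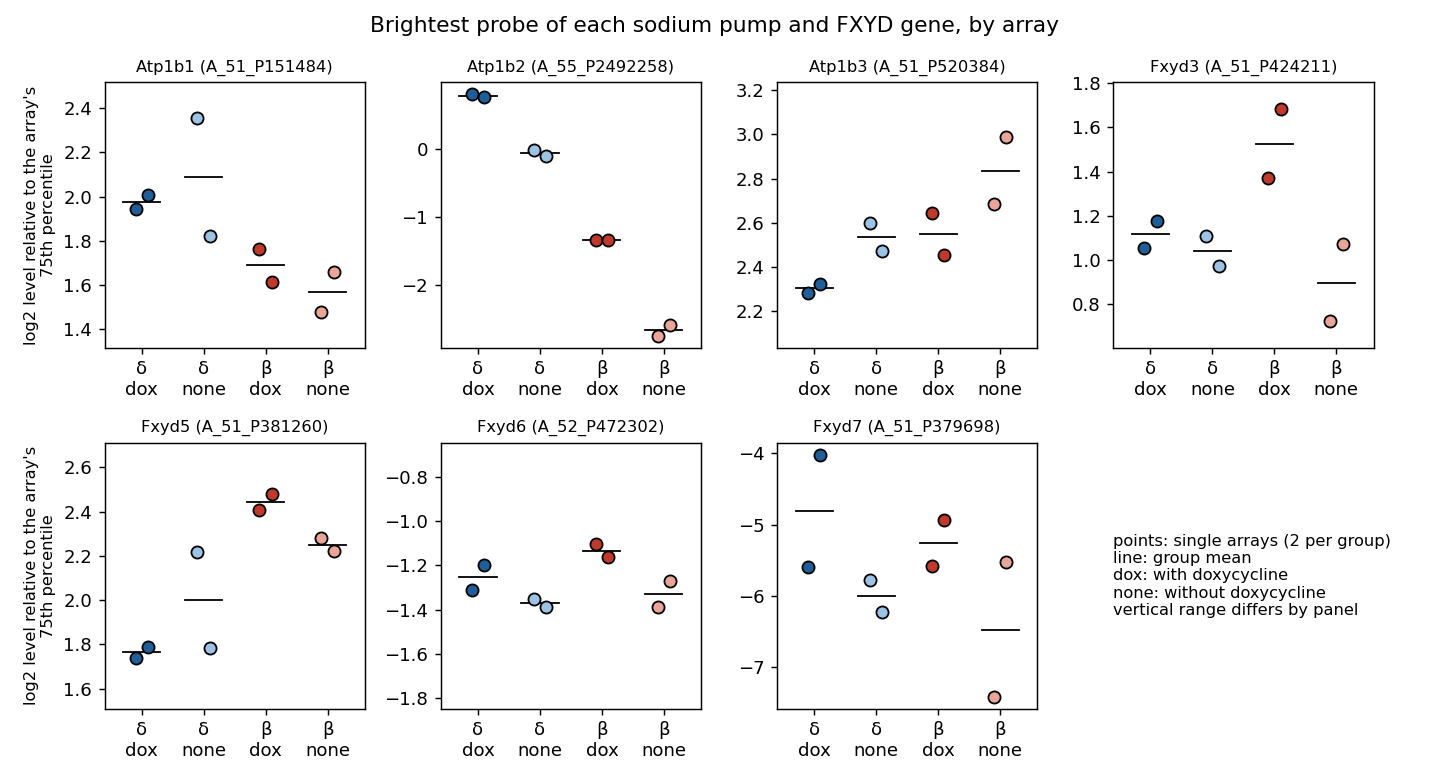
Log2 level relative to the array's 75th percentile (vertical axis, range differing by panel) of the brightest probe of each gene in the 4 groups, with 1 point per array and a line at the group mean. Atp1b2 separates the groups without overlap, at 0.79 and 0.76 in treated δ cells and at -2.75 and -2.58 in untreated β cells, while the points of most other genes overlap between groups.

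Atp1b2 encodes the β2 subunit, known in the nervous system as a glial adhesion molecule. Its brightest probe, A_55_P2492258, read 0.79 and 0.76 in treated δ cells, -0.02 and -0.12 in untreated δ cells, -1.35 and -1.33 in treated β cells, and -2.75 and -2.58 in untreated β cells. The 4 groups fell into that order from high to low with no overlap between neighbours. With doxycycline its level was higher by 0.84 in the δ line (1.80-fold) and by 1.32 in the β line (2.50-fold). The δ difference minus the β difference was -0.48. These differences are the values it was picked on and are not tested here.

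The difference of Atp1b2 between the lines was not used to pick it, although the same arrays enter both. Among treated cells its level was 2.12 ± 0.10 (SE) higher in the δ line than in the β line, or 4.34-fold (95% interval 1.88 to 2.35, adjusted p = 0.00011). Among untreated cells it was 2.60 ± 0.10 higher in the δ line, or 6.05-fold (2.36 to 2.83, adjusted p = 5.28e-05). Both arrays of the δ line lay above both arrays of the β line under each treatment. Each of these comparisons lies within 1 row of the slide. Atp1b2 passed between the lines under all alternatives run, with differences of 1.62 to 2.20 among treated and 1.81 to 2.68 among untreated cells.

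A second probe of Atp1b2, A_66_P117392, was dim. It read -4.80 and -4.32 in treated δ cells, -5.42 and -5.32 in untreated δ cells, -5.58 and -5.79 in treated β cells, and -5.83 and -6.94 in untreated β cells. It was well above background on both treated δ arrays and on 1 treated β array, and on no untreated array. At this probe the treated δ arrays lay above all others, and the untreated arrays compare signals that are not above background. It passed the filter only through treated δ cells, the group where it was highest, so it is no support for the line difference. With doxycycline in the δ line it was at least 1.64-fold higher, set against the lowest signals that counted as well above background. Its measured line difference of 1.12 ± 0.36 among treated cells (SE, limma adjusted p = 0.127 over 44321 probes) did not pass. Beside such dim values, the median negative control lay between -8.80 and -8.29 on treated arrays and between -8.07 and -7.84 on untreated arrays, on the same log2 scale, and its part in them was not tested.

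**Figure D2:**
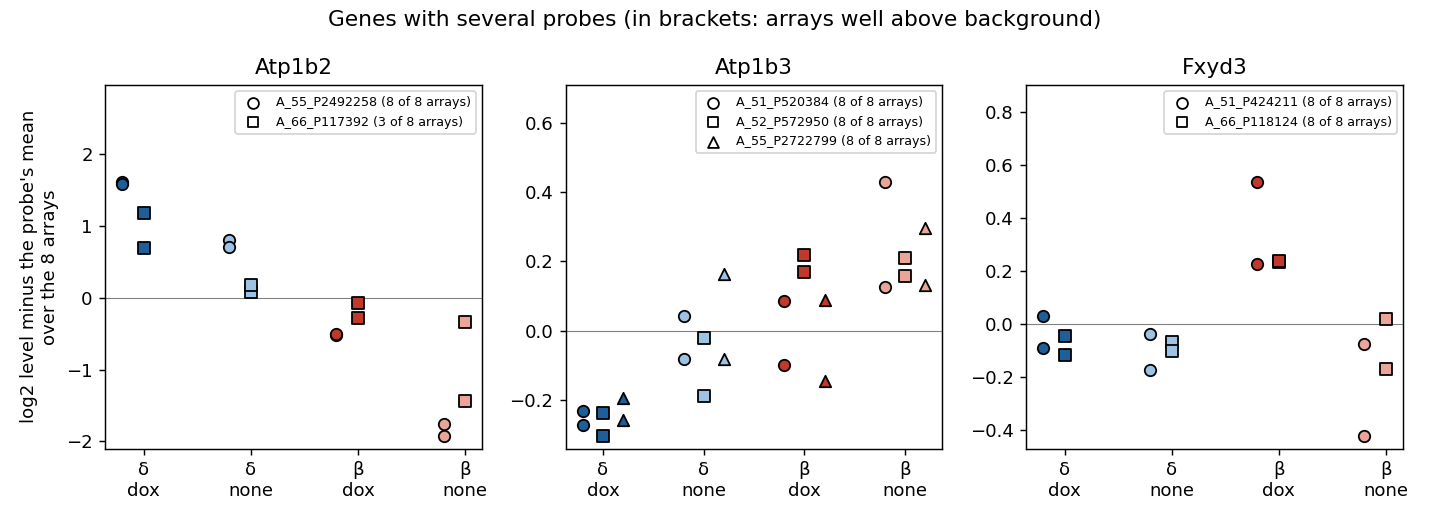
Log2 level minus the probe's mean over the 8 arrays (vertical axis) for the genes with several probes, by group, with 1 symbol per array and a symbol shape per probe. Both Atp1b2 probes are highest in treated δ cells, the 3 Atp1b3 probes are lowest there, and both Fxyd3 probes are highest in treated β cells.

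Of the 6 genes that were not picked, none passed with doxycycline by limma. The 6 include Fxyd7, which passed the filter only through treated δ cells, the group where it was highest. Its part in the counts and medians below is therefore no fair test of doxycycline. In the δ line 0 of 6 passed, against 0.0736% of all genes tested (14 genes, 4 higher and 10 lower), and 0 of 6 had an unadjusted p under 0.05, against 15.0% of all genes. In the β line 0 of 6 passed, against 0.247% of all genes (47 genes, 22 higher and 25 lower), and 1 of 6, Fxyd3, had an unadjusted p under 0.05, against 18.2% of all genes, so this count is near the background. The difference between the lines in the doxycycline effect passed for 0 of 6, against 0.00526% of all genes (1 gene), and 0 of 6 had an unadjusted p under 0.05, against 7.60% of all genes. Without the probes in deviating tiles, which took Atp1b1 and Fxyd5 out of the test, 52 genes passed in the δ line and 272 in the β line, and none of the members still tested. With all probes, the median of the 6 genes was -0.02 in the δ line, beside 0.00 over all genes, and 0.20 in the β line, beside 0.03 over all genes.

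Between the lines more passed. Among treated cells 2 of 7 differed, Atp1b2 higher and Fxyd5 lower in the δ line, against 15.3% of all genes (2914 genes, 1870 higher and 1044 lower). Among untreated cells 1 of 7 differed, Atp1b2, against 13.2% of all genes (2506 genes, 1492 higher and 1014 lower). The comparisons share arrays, since each group enters a doxycycline comparison and a line comparison. The intervals of all 7 genes are drawn in the plot of differences.

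**Figure D3:**
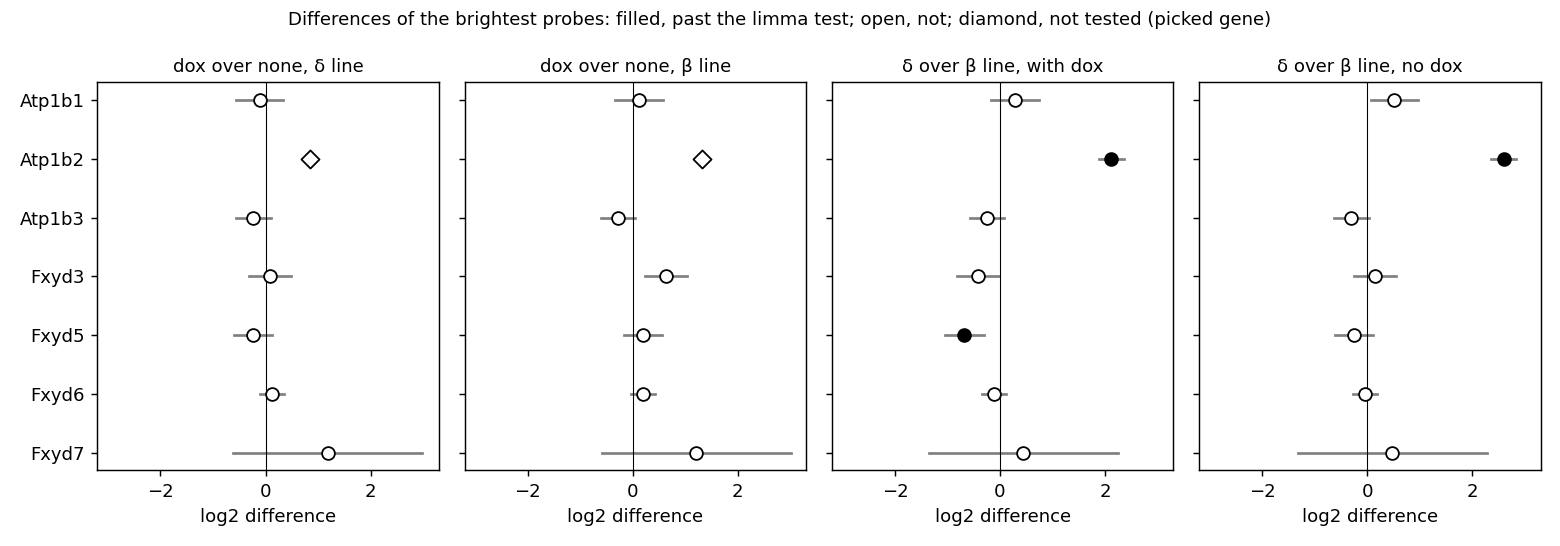
Log2 difference (horizontal axis) of the brightest probe of each gene, with doxycycline over none in each line and the δ over the β line with and without doxycycline, with the 95% interval of limma as a bar. Filled points passed the test, open points did not, and the diamonds mark Atp1b2 where it was not tested. Only Atp1b2 (2.12 and 2.60) and Fxyd5 among treated cells (-0.68) are filled.

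Atp1b1 encodes the β1 subunit, the common form in epithelia, where it also joins neighbouring cells. Its only probe, A_51_P151484, read 1.95 and 2.01 in treated δ cells, 2.36 and 1.82 in untreated δ cells, 1.76 and 1.62 in treated β cells, and 1.48 and 1.66 in untreated β cells. The treated and untreated arrays of each line overlapped, and both δ groups lay above the β group of the same treatment. The differences with doxycycline were -0.11 in the δ line (interval -0.56 to 0.34, adjusted p = 0.784) and 0.12 in the β line (-0.33 to 0.57, adjusted p = 0.805). The δ line was higher than the β line by 0.29 among treated cells (adjusted p = 0.345) and by 0.52 among untreated cells (0.07 to 0.97, adjusted p = 0.132), and neither passed.

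The Atp1b1 spot of the untreated δ replicate 1 lay in a deviating tile, 0.386 above the other arrays at the tile's median. With each tile's median deviation subtracted, the levels were 2.12 and 2.03 in treated δ cells, 2.00 and 1.82 in untreated δ cells, 1.83 and 1.80 in treated β cells, and 1.30 and 1.58 in untreated β cells. The untreated line difference was then 0.47 and passed (adjusted p = 0.0477). Without the untreated δ replicate 1 it was 0.25 (adjusted p = 0.362), and without replicate 2, which leaves the array with the local defect alone, it was 0.79 (adjusted p = 0.0127). The doxycycline difference in the δ line turned to 0.17 with the subtraction.

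Atp1b3 encodes the β3 subunit, a widely expressed form. Its brightest probe, A_51_P520384, read 2.28 and 2.33 in treated δ cells, 2.60 and 2.47 in untreated δ cells, 2.64 and 2.46 in treated β cells, and 2.68 and 2.99 in untreated β cells. The treated arrays lay below the untreated arrays in each line, without overlap. The differences were -0.23 in the δ line (-0.56 to 0.10, adjusted p = 0.425) and -0.29 in the β line (-0.61 to 0.04, adjusted p = 0.334), and neither passed. The δ line was lower than the β line by differences of -0.24 among treated cells (adjusted p = 0.272) and -0.30 among untreated cells (adjusted p = 0.214), which did not pass either.

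The other 2 probes of Atp1b3 gave doxycycline differences of -0.16 (A_52_P572950) and -0.27 (A_55_P2722799) in the δ line, and of 0.01 and -0.24 in the β line. The probe A_52_P572950 read -0.37 and -0.43 in treated δ cells and -0.15 and -0.32 in untreated δ cells, against 0.09 and 0.04 in treated β cells and 0.08 and 0.03 in untreated β cells. At this probe both δ groups lay below both β groups. The treated line difference there was -0.46 ± 0.11 (SE, limma adjusted p = 0.0566 over 44321 probes), just outside the threshold. Of all 3 probes, A_55_P2722799 had its untreated δ replicate 1 spot in a deviating tile (0.378).

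Fxyd5 encodes dysadherin, a regulator of the pump in epithelia that weakens adhesion between cells when overproduced. Its promoter is shown because Fxyd5 is the FXYD gene that differed between the treated lines, and that of Fxyd3, which lies near it on chromosome 7, is shown for comparison. Both windows run from 250 bases before to 50 bases after the annotated start, 5′ to 3′ on the minus strand, and come from RefSeq with the build GRCm38.p6. Capitals mark the E-box letters CANNTG, which TFII-I is known to bind in some forms and which read the same on both strands.
Fxyd5 (chr7:31042282-31042581): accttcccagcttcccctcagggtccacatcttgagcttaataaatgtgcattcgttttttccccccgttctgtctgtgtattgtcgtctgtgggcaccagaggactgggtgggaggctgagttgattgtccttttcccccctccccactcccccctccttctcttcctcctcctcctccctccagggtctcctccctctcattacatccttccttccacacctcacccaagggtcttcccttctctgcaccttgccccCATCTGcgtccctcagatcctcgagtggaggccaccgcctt
Fxyd3 (chr7:31076648-31076947): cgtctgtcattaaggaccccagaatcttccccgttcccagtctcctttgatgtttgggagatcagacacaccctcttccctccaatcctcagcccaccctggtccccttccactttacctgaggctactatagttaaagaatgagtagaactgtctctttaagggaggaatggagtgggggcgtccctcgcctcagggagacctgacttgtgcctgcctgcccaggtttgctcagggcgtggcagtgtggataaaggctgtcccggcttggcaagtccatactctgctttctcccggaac
The Fxyd5 window holds 1 CANNTG and the Fxyd3 window 0. Of 32544 promoter windows in the same table, 72.3% hold CANNTG and 7.17% hold its form CACGTG, so these matches describe the letters alone. Windows were found for 5 of the 7 genes, and 1 of the 2 Atp1b3 windows holds CACGTG.

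The only probe of Fxyd5, A_51_P381260, read 1.74 and 1.79 in treated δ cells, 2.22 and 1.78 in untreated δ cells, 2.41 and 2.48 in treated β cells, and 2.28 and 2.22 in untreated β cells. Both treated δ arrays lay below both treated β arrays, while the untreated δ arrays lay apart from each other. Among treated cells the level was lower in the δ line, with a difference of -0.68 ± 0.15 (SE), or 1.60-fold (interval -1.05 to -0.31, adjusted p = 0.0335). Among untreated cells the difference was -0.25 (adjusted p = 0.333) and did not pass. The doxycycline differences were -0.24 in the δ line (-0.60 to 0.13, adjusted p = 0.457) and 0.19 in the β line (-0.17 to 0.56, adjusted p = 0.568), and their difference of -0.43 did not pass (adjusted p = 0.653).

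The call on Fxyd5 was not stable. Its spot lay in a deviating tile of the treated δ replicate 2, with a tile median of -0.398. With each tile's median deviation subtracted, the levels were 1.66 and 2.18 in treated δ cells and 2.34 and 2.43 in treated β cells, and the difference of -0.47 did not pass (adjusted p = 0.141). It did not pass after median centring either (-0.60, adjusted p = 0.0757), nor without any 1 of the 4 treated arrays or of the 2 untreated β arrays. Over the arrays left out in turn, the difference lay between -0.72 and -0.64 with adjusted p between 0.00787 and 0.192.

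Fxyd3 encodes a regulator of the pump found in epithelia and in some tumours. Its brightest probe, A_51_P424211, read 1.05 and 1.18 in treated δ cells, 1.11 and 0.97 in untreated δ cells, 1.37 and 1.68 in treated β cells, and 0.72 and 1.07 in untreated β cells. The treated β arrays lay above all other arrays, and treated and untreated δ arrays overlapped. The doxycycline difference was 0.08 in the δ line (-0.32 to 0.48, adjusted p = 0.836) and 0.63 ± 0.16 in the β line (SE, 0.23 to 1.03, unadjusted p = 0.0083, adjusted p = 0.136). Neither passed, nor did the difference between them of -0.55 (unadjusted p = 0.0539, adjusted p = 0.645).

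The second probe of Fxyd3, A_66_P118124, read 1.06 and 0.99 in treated δ cells, 1.03 and 0.999 in untreated δ cells, 1.33 and 1.34 in treated β cells, and 0.93 and 1.12 in untreated β cells. Here too the treated β arrays lay above all others. Its doxycycline differences of 0.01 in the δ line and 0.31 in the β line were smaller than those of the brightest probe. Between the treated lines Fxyd3 differed by -0.41 (adjusted p = 0.148) and between the untreated lines by 0.14 (adjusted p = 0.62), without passing.

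Fxyd6 encodes a regulator of the pump best known from brain and inner ear. Its only probe, A_52_P472302, read -1.31 and -1.20 in treated δ cells, -1.35 and -1.39 in untreated δ cells, -1.11 and -1.16 in treated β cells, and -1.39 and -1.27 in untreated β cells. The treated arrays lay above the untreated ones in each line, by a margin that did not pass. The differences were 0.12 in the δ line (-0.11 to 0.35, adjusted p = 0.551) and 0.20 in the β line (-0.03 to 0.43, adjusted p = 0.342). Between the lines they were -0.12 among treated cells (adjusted p = 0.438) and -0.04 among untreated cells (adjusted p = 0.817). These intervals are the narrowest of the 6 genes that were not picked.

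Fxyd7 encodes a regulator of the pump found mainly in brain. Its only probe, A_51_P379698, read -5.60 and -4.03 in treated δ cells, -5.77 and -6.22 in untreated δ cells, -5.58 and -4.94 in treated β cells, and -7.41 and -5.53 in untreated β cells. It was not well above background on any untreated array. The fold with doxycycline was at least 1.38 in the δ line and at least 1.02 in the β line, against the lowest signals that counted as well above background. In each line the treated replicate 2 was the higher array of its group, and in treated β cells only 1 array was well above background. The treated replicate 1 lay below those lowest signals in each line, which were -5.27 and -5.28 on untreated δ and -5.20 and -5.37 on untreated β arrays. Each bound therefore rests on replicate 2. With an array left out, the fitted difference ranged from 0.39 to 1.97 in the δ line and from 0.27 to 2.15 in the β line. The fitted differences of 1.18 (-0.62 to 2.98, adjusted p = 0.451) and 1.21 (-0.59 to 3.01, adjusted p = 0.454) did not pass, and their intervals are the widest of the 7 genes. Because the filter kept Fxyd7 through treated δ cells alone, these differences are no fair test of doxycycline.

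On chromosome 7, RefSeq places Fxyd5, Fxyd7, Fxyd1 and Fxyd3 in that order, with Lgi4 between Fxyd1 and Fxyd3, and on chromosome 9 Fxyd6 lies next to Fxyd2. Fxyd1 encodes phospholemman, the pump regulator of heart and skeletal muscle. It read 4.07 and 4.14 in treated δ cells, 4.13 and 3.99 in untreated δ cells, 4.26 and 4.53 in treated β cells, and 3.32 and 3.73 in untreated β cells. As for Fxyd3, the treated β arrays lay above all other arrays. Its differences of 0.05 in the δ line (adjusted p = 0.904) and 0.87 ± 0.16 in the β line (SE, adjusted p = 0.0827) did not pass. Fxyd2, the pump's γ subunit of kidney, differed by -0.26 in the δ line and 0.03 in the β line.

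Of 12 other genes of the pump, its FXYD regulators and the NKAIN proteins that bind it, 11 were measured, and 0 passed by limma in any comparison. The shares of all genes that passed were 0.0736% with doxycycline in the δ line, 0.247% in the β line and 0.00526% for the difference of these effects. They were 15.3% between the treated and 13.2% between the untreated lines. At an unadjusted p under 0.05 there were 3 of these 11 genes with doxycycline in the δ line and 1 of 11 in the β line, beside 15.0% and 18.2% of all genes. The median doxycycline difference of the 11 genes was -0.22 in the δ line and 0.11 in the β line. Atp1a4, a catalytic subunit of sperm, differed with doxycycline by -0.38 in the δ line and -0.20 in the β line. Fxyd4, a regulator of the kidney collecting duct that was well above background on 5 of 8 arrays, differed by -0.37 in the δ line. It was well above background on neither untreated β array, so its fitted 0.51 in the β line is set against signals that are not above background. There its fold with doxycycline was at least 1.16. The NKAIN genes differed in the δ line by -0.22 (Nkain1), -0.49 (Nkain2), -0.04 (Nkain3) and -0.47 (Nkain4), and in the β line by 0.31, 0.31, 0.11 and -0.28. Atp1b4 was not tested, because it did not pass the filter on dim probes.

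Other pumps of the same family did not pass in any comparison. Over all genes, 0.0736% passed with doxycycline in the δ line, 0.247% in the β line and 0.00526% for the difference of these effects. Between the lines 15.3% passed among treated and 13.2% among untreated cells. Of the 3 related proton pump genes, Atp4a, Atp4b and Atp12a, doxycycline differences lay between -0.44 and -0.19 in the δ line and between -0.20 and 0.48 in the β line. All 9 calcium pump genes were measured, with a median of -0.10 in the δ line and 0.19 in the β line, beside 0.00 and 0.03 over all genes. Those with the smallest p were Atp2b1 (0.32) and Atp2c1 (0.35) above 0 and Atp2b2 (-0.37) and Atp2a1 (-0.19) below 0 in the δ line, and Atp2c2 (0.50) and Atp2b4 (0.89) in the β line, where all 9 lay above 0.

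**Figure D4:**
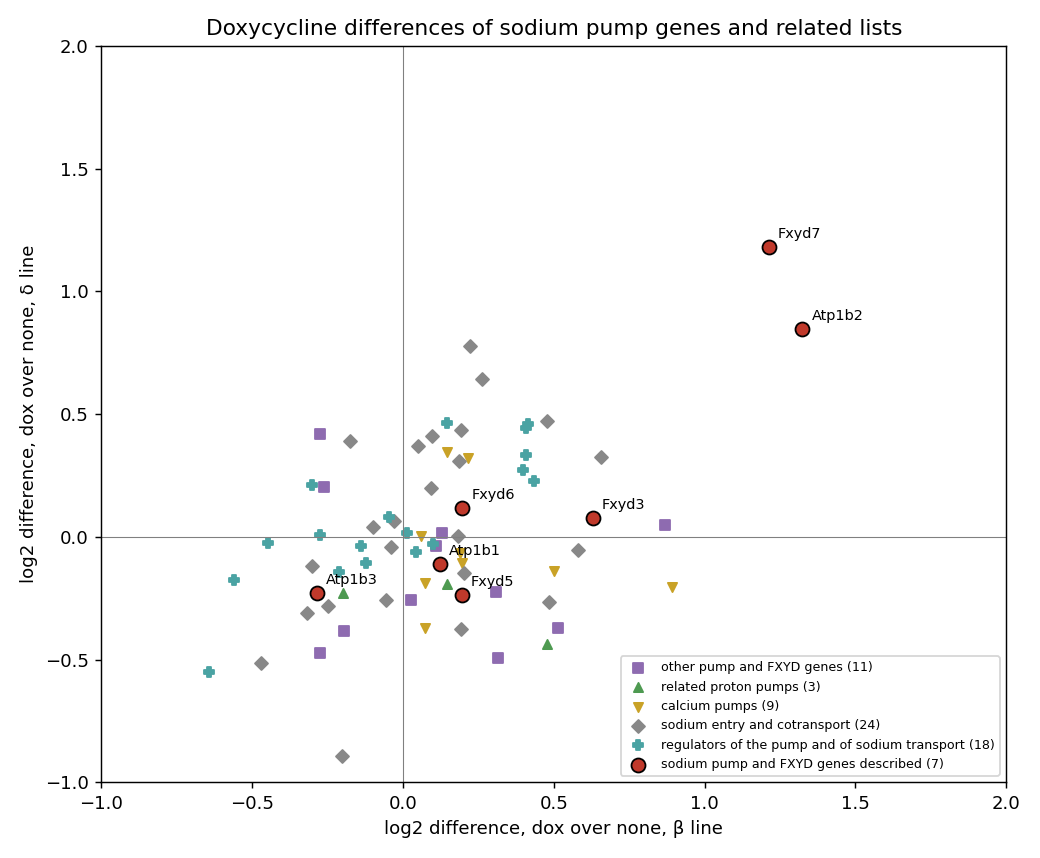
Log2 difference with doxycycline in the δ line (vertical axis) against that in the β line (horizontal axis) for the 7 genes and for 5 lists of related genes, with 1 point per gene at its brightest probe. Atp1b2, at 1.32 in the β line and 0.84 in the δ line, and the dim Fxyd7 lie farthest to the upper right, and no listed gene passed the test in either line.

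Some genes that carry sodium into cells or move other solutes with it differed between the lines and not, by the test, with doxycycline. Of 27 such genes 24 were measured, and 0 passed with doxycycline in either line, with 8 at an unadjusted p under 0.05 in the δ line and 5 in the β line, beside the same 15.0% and 18.2% of all genes. Above 0, the genes of smallest p included the amino acid carrier Slc38a1 in the δ line (0.44) and the inositol carrier Slc5a3 in the β line (0.66). The smallest p below 0 were in both lines those of Slc12a8 (-0.51 in the δ line and -0.47 in the β line) and the amino acid carrier Slc38a2 (-0.31 and -0.32).

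Between the treated lines 2 of 24 were higher and 3 lower in the δ line. The bicarbonate cotransporter Slc4a4 (1.93, adjusted p = 0.0484, well above background on 6 of 8 arrays) was among the higher ones. It was not well above background on treated β replicate 1 (-5.77) or untreated β replicate 2 (-6.10). Slc4a4 thus passed the filter only through the δ line, where it was higher, so its call is no fair test of the line difference. The sodium/proton exchanger Slc9a2 (-1.91, adjusted p = 0.000219), the chloride cotransporter Slc12a2 (-0.54, adjusted p = 0.0291) and the phosphate carrier Slc20a1 (-0.44, adjusted p = 0.048) were lower. Between the untreated lines 2 of 24 were higher in the δ line, the potassium/chloride cotransporter Slc12a7 (0.58) among them, and Slc9a2 (-2.03), Slc12a2 (-0.86) and Slc20a1 (-0.62) were lower. These shares lie beside 15.3% of all genes for treated and 13.2% for untreated cells.

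Of 19 regulators of the pump and of sodium transport, 18 were measured and 0 passed with doxycycline, with 5 at an unadjusted p under 0.05 in the δ line and 7 in the β line, where all genes gave 15.0% and 18.2%. Ank3, the ankyrin G gene whose protein anchors the pump to the membrane skeleton, had the smallest p below 0 in both lines, at -0.55 in the δ line (adjusted p = 0.179) and -0.64 in the β line (adjusted p = 0.0798). It was followed by Wnk1 (-0.14) in the δ line and Nfat5 (-0.56) in the β line. Above 0, the smallest p were those of Nr3c1 (0.47), the glucocorticoid receptor, and the kinase Wnk4 (0.33) in the δ line, and of the kinases Sik1 (0.44) and Wnk4 (0.41) in the β line. Between the treated lines 3 of 18 were higher in the δ line, against 15.3% of all genes that differed in either direction. They were Wnk4 (0.79), Nedd4l (0.48, adjusted p = 0.0488) and Nr3c1 (0.40, adjusted p = 0.0477), the latter 2 close to the threshold, and 1, Ank3 (-0.86), was lower. Between the untreated lines 2 of 18 were higher, Wnk4 (0.86) and Sik1 (0.52), and 1 lower, Ank3 (-0.95), against 13.2% of all genes.

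The genes whose levels followed Atp1b2 most closely over the 8 arrays were Kdr (Pearson r 0.999), Itga1 (0.998), Kdm5b (0.996), Pnliprp2 (0.996) and Flrt1 (0.994), among 15188 genes well above background on all arrays. The coefficient is a description over 8 arrays that fall into 4 groups, and the arrays share a slide. Kdr, the receptor for the endothelial growth factor VEGF, read 2.35 and 2.27 in treated δ cells, 1.76 and 1.67 in untreated δ cells, 0.72 and 0.83 in treated β cells, and -0.20 and -0.09 in untreated β cells. It kept the order of groups that Atp1b2 had, with smaller steps. The doxycycline differences in the δ and the β line were 0.48 and 0.94 for Itga1, an integrin subunit, 0.35 and 0.51 for Kdm5b, a histone demethylase, 1.01 and 1.65 for Pnliprp2, a lipase-related gene, and 0.79 and 1.26 for Flrt1, an adhesion protein. Their line differences among treated and untreated cells were 1.56 and 2.02, 0.82 and 0.99, 2.32 and 2.95, and 2.44 and 2.90 in the same order of genes.

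**Figure D5:**
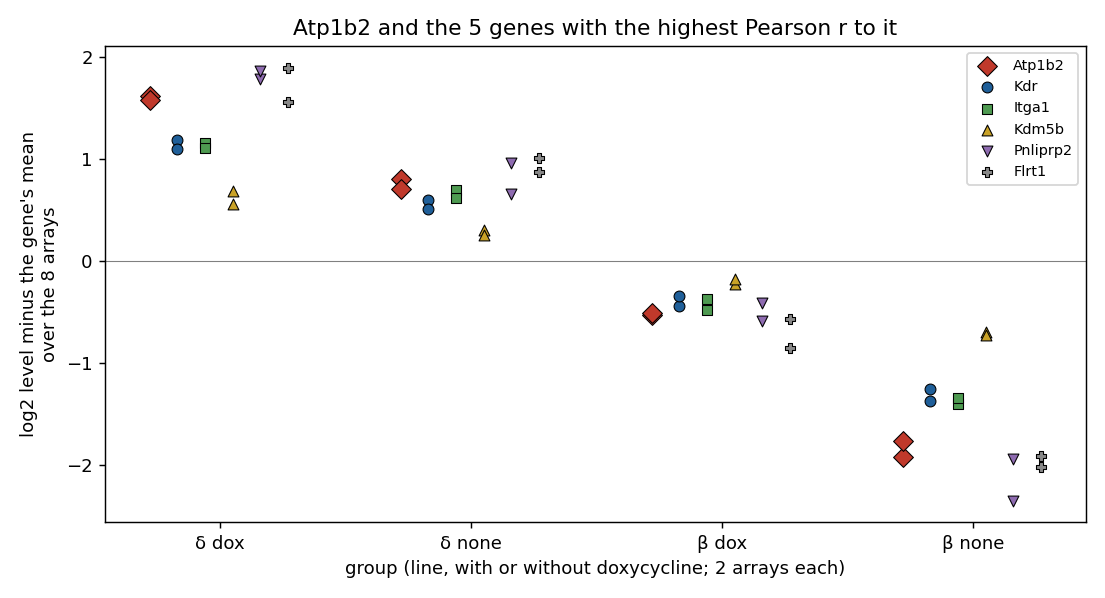
Log2 level minus the gene's mean over the 8 arrays (vertical axis) for Atp1b2 and the 5 genes with the highest Pearson r to it, by group, with 1 symbol per array. All 6 genes are highest in treated δ cells, then in untreated δ, treated β and untreated β cells, without overlap between neighbouring groups, and r ranges from 0.994 to 0.999. The 5 genes were chosen for this likeness on the same arrays, so the shared order follows from the choice.

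Marker sums of other cell types were set beside these values, as summed linear levels in multiples of the array's 75th percentile. Levels are not comparable between probes, and the brightest probe weighs most in a sum. Among the thymocyte markers that was Cd4, at log2 levels of 4.14 and 4.81 in treated β cells. Among the markers of neurons and astrocytes it was Snap25, at 2.75 on both treated δ arrays. Those sums lean on a single gene each and do not measure a cell type. The sum of 4 endothelial markers, which include Kdr, was 5.50 to 5.66 in treated δ cells, 3.68 to 3.95 in untreated δ cells, 2.22 to 2.42 in treated β cells and 1.49 to 1.91 in untreated β cells, an order that the choice of Kdr for its likeness to Atp1b2 bears on. Without Kdr the sum was 0.551 to 0.687 in treated δ cells, 0.497 to 0.567 in untreated δ cells, 0.570 to 0.645 in treated β cells and 0.627 to 0.975 in untreated β cells, and did not have the order of Atp1b2. Of these other 3 markers, all named after their values were seen, line differences among treated and untreated cells were -0.09 and -0.40 for Pecam1, 0.36 and -2.06 for Cdh5, and 1.29 and 1.98 for Tek, which was well above background on 6 of 8 arrays. Cdh5 read -5.10 and -0.96 in untreated β cells and between -5.36 and -4.70 on all other arrays. Its untreated line difference and the sum of 0.975 therefore rest on the untreated β replicate 2 alone. The sum of the 7 measured thymocyte markers was 19.0 to 20.6 in treated δ cells, 18.1 to 20.6 in untreated δ cells, 22.8 to 34.0 in treated β cells and 20.4 to 22.1 in untreated β cells, highest in the group where Fxyd3 was highest. The value of 34.0 rests on Cd4 in treated β replicate 2 alone. On treated β replicate 1 Cd4 read 4.14, beside 4.17 and 4.04 in untreated β cells, and the sum of 22.8 lay close to 22.1. The sum of 8 markers of neurons and astrocytes, in which Atp1b2 is known to be used, was 8.04 to 8.05 in treated δ cells, 8.78 to 10.8 in untreated δ cells, 8.93 to 11.5 in treated β cells and 9.08 to 11.5 in untreated β cells, and did not have the order of Atp1b2. The sum of the 4 measured epithelial markers was 12.5 to 13.1 in treated δ cells and 12.8 to 13.2 in untreated δ cells. It was 50.4 to 55.5 in treated β cells and 54.6 to 62.3 in untreated β cells, a line difference opposite in direction to that of Atp1b2. In β cells Krt14 weighed most in it, at log2 levels of 4.97 and 4.74 in treated β cells. Line differences among treated and untreated cells were -3.67 and -3.75 for Krt14 and -2.11 and -1.88 for Krt8. They were -0.30 and -0.75 for Krt18 and -0.48 and -0.08 for Krt5. By limma, Krt5 passed in neither comparison (adjusted p = 0.29 and 0.883), and Krt18 did not among treated cells (adjusted p = 0.0677). The part of these sums in the values of Atp1b2, Fxyd5 and Fxyd3 was not tested.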

How the data were processed

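Gene expression was measured on 8 one-colour arrays in 4 groups of 2. The authors quantified scans with Agilent's Feature Extraction software, whose version is 11.5.1.1 in the file headers and 11.5.11 in the submitters' processing notes, and the deposited values are linear intensity values, background-subtracted and spatially detrended, with no normalization between arrays. The root mean square of the multiplicative detrending was 0 on 3 treated arrays, 0.0811 on the treated β replicate 1 and 0.0671 to 0.126 on untreated arrays. The flags for spots well above background or outlying are the same software's.

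Outlier-flagged and control spots were left out, log2 processed intensities were averaged per probe (56605 probes, none saturated) and scaled by subtracting the 75th percentile of the array. A probe was kept (44321) if 1 group or more had it well above background on both arrays. Of all probes, 32994 were named through transcript accessions in a RefSeq table (GRCm38.p6, while the headers name mm9) and 23611 were not. The only coordinates printed are those of the Fxyd5 and Fxyd3 promoter windows, on GRCm38.p6. The brightest probe stood for each gene. The 4 group means were estimated jointly from all 8 arrays with lmFit and eBayes of limma 3.58.1 under R 4.3.3, leaving 4 residual degrees of freedom. Benjamini-Hochberg adjustment covered 19023 genes, or 44321 probes, at 0.05. The fit was tested on simulated data. The normexp alternative (offset 50) used median in place of mean foreground signals, since the mean column is not in the files used here. Where a probe was not well above background on either array of a group, its fold is a lower bound: each dim array's value was replaced by the lowest signal that counted as well above background there, if that was higher.

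Members and gene lists were chosen with earlier results of these data known. Named genes were all 7 members with every probe, the other pump and FXYD genes, from the other lists those past the threshold and up to 2 per direction with the smallest p in each doxycycline comparison, Gtf2i, and the 5 genes with the highest Pearson r to Atp1b2. Some genes that this rule takes are not reported here. Other normalizations, filters, probe summaries and fits, and each array left out, were tried. Samples with the same replicate number did not deviate together (correlation 0.0759 in the δ line and 0.0185 in the β line), so the numbers only name arrays. The correlation between arrays of a group was 0.965 for untreated δ cells (0.993 without deviating tiles) and 0.994 to 0.997 for the other groups.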

Additional observations from a re-analysis of the deposited data

How the results depend on the processing

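The picked gene Atp1b2 kept its direction under all 20 alternatives run, with doxycycline differences of 0.67 to 0.89 in the δ line and 1.02 to 1.41 in the β line. The other 6 genes include Fxyd7, which the filter kept only through treated δ cells. The number of them past the threshold with doxycycline, and for the difference between the lines, was 0 under every alternative, each array left out included. With a replicate block, which pairs arrays by line and number, it was also 0, no call on a member changed, and over all genes 1 passed in the δ line and 0 in the β line. Slide as a block was not run, since there is 1 slide. Over all genes the count with doxycycline ranged from 1 to 1620 in the δ line and from 0 to 399 in the β line, where 399 came with each tile's median deviation subtracted, and from 0 to 1055 for the difference of the 2 effects. The values 1620 and 1055 came without the untreated δ replicate 2, which leaves the array with the local defect alone in its group. A lone array is assumed to vary like the other groups. With arrays left out, 0 in the β line came without any 1 of the treated arrays or the untreated β replicate 1. Between the lines it ranged from 697 to 4118 among treated and from 709 to 3747 among untreated cells, with 697 without the treated δ replicate 1 and 3747 without the untreated δ replicate 2.

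Among treated cells the count of the 7 genes past the threshold between the lines was 1 after median centring, without the probes in deviating tiles, which removed Fxyd5, and with tile deviations subtracted, and ranged from 1 to 2 with an array left out. Among untreated cells it was 2 with tile deviations subtracted, where Atp1b1 passed, and ranged from 1 to 2 with an array left out.

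Several differences that did not pass changed sign, and the cause was not tested. After normexp these were Atp1b1 with doxycycline in the δ line (0.12) and, between the untreated lines, Fxyd3 (-0.044) and Fxyd6 (0.078). With tile deviations subtracted they were Atp1b1 (0.17), Atp1b3 (0.050), Fxyd3 (-0.061) and Fxyd5 (0.032) with doxycycline in the δ line, Fxyd6 between the untreated lines (0.017) and Fxyd7 for the difference of the doxycycline effects (0.019), which was 0.025 after median centring. That difference for Atp1b3 was -0.0035 after quantile normalization and -0.048 as a mean over probes. With an array left out, Atp1b1 ranged from -0.38 to 0.15 with doxycycline in the δ line, and the difference of the doxycycline effects ranged from -0.50 to 0.033 for Atp1b1, from -0.10 to 0.21 for Atp1b3 and from -0.97 to 0.91 for Fxyd7. Between the untreated lines Fxyd3 ranged from -0.032 to 0.31, Fxyd6 from -0.10 to 0.018 and Fxyd7 from -0.46 to 1.41, and between the treated lines Fxyd7 ranged from -0.34 to 1.23. The 2 alternatives on deviating tiles other than leaving out all of them were chosen after seeing the data. Signal over background limits the dim probes of Fxyd7 and Atp1b2.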
